A study of Homo sapiens with 12 samples.

Results

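The comparison set the 4 libraries of MDA-MB-231 cells given 0.05 or 0.5 μM Paclitaxel (the higher doses) against the 4 libraries given 0.0005 or 0.005 μM (the lower doses). It took 8 of the 12 libraries of the series and 4 of its 6 conditions, chosen by dose as written in the labels, with 2 libraries at each dose. MDA-MB-231 is a triple negative breast cancer cell line. The cells used here carry a green fluorescent protein in the nucleus and were grown in 3D in Matrigel, a gel of basement membrane proteins. By the labels Paclitaxel was added on day 2 and all 8 treated libraries were taken on day 4, whereas the study's methods give a later day of treatment for its imaging cultures and refer to these for the sequenced ones. The time of exposure is therefore not certain, but it is given as the same for all doses, so the sets differ in dose and in nothing else that the labels give. The other 4 libraries were untreated cells, 2 of day 2 and 2 of day 4. Both lie outside the comparison, and their values are given only as the level without drug. Gels were broken up with collagenase and dispase before RNA was extracted, and same-dose libraries are described as biological replicates in the study's methods. No label gives the number of cells that were alive at the time of extraction. In these bulk libraries a smaller share of one kind of cell and less RNA of a gene per cell cannot be told apart.

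Paclitaxel binds the beta subunit of tubulin inside the microtubule wall and stabilises the polymer. A spindle built from stabilised microtubules holds cells in mitosis, and cells that leave mitosis without dividing properly can carry micronuclei. DNA in the cytoplasm is a known trigger of interferon genes, and damaged or stressed tumour cells are known sources of inflammatory cytokines.

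Reads counted on genes summed to 51527342 to 78902944 per library, with a median of 68622222.5. Cells of the line were recognisable by the 9 genes fixed as its markers, among them VIM and EGFR, which lay between 16 and 1220 CPM (counts scaled to the size of the library) in every treated library. Of 9 markers of luminal breast cells 3 stayed under 1 CPM in all 8, among them the receptors of oestrogen (ESR1, at most 0.462 CPM) and progesterone (PGR, at most 0.0868 CPM). Another 6 did not, with up to 4.56 CPM for GATA3, 5.22 for TFF1, 9.55 for FOXA1, 35.5 for ERBB2, 94.1 for MLPH and 234 for XBP1. Of 10 fibroblast markers 6 stayed under 1 CPM in all 8 libraries, as did 6 of 10 leukocyte and 5 of 6 endothelial markers, and none was at 0 in every library. Summed over each list, levels were 12.7 to 16.6 CPM at the lower and 14.7 to 22.1 CPM at the higher doses for fibroblast, 4.11 to 5.81 CPM at the lower and 6.08 to 7.95 CPM at the higher doses for leukocyte and 2.09 to 2.91 CPM at the lower and 2.32 to 3.33 CPM at the higher doses for endothelial markers, and their part in the results was not tested. The leukocyte sums did not overlap between the sets. COL3A1 and PDGFRA were the fibroblast markers called higher at the higher doses, at no more than 1.5 and 2.14 CPM. Replicate 2 at 0.0005 μM stood apart from the rest of its set, with 7.91% of its counts in the 10 most abundant genes against 6.3% to 6.51%, so counts are also given without it. The first principal component, 44.6% of the variance, did not separate the sets (two-sided exact permutation test, p = 0.486). The second, 18.4% of the variance, did, at the smallest p this design allows (exact permutation p = 0.0286, adjusted p = 0.229 over 8 measures), with 13 to 24.7 in the lower-dose and −34.6 to −5.4 in the higher-dose libraries.

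Differences between the higher and the lower doses were moderate in number and in size. Of 23346 genes tested, 396 (1.70%) were called by edgeR's quasi-likelihood test at a Benjamini-Hochberg adjusted p under 0.05, 191 higher at the higher doses (0.818% of genes) and 205 lower (0.878%). The median log2 fold change was 0.61 among the first and −0.59 among the second, against −0.0081 over all genes. Of the 396, 55 were identifiers without a symbol, and identifiers with near-identical counts were each counted. Changes of more than a doubling were found for 31 of the genes called higher and 52 of those called lower. With a symbol and at least 5 CPM they were 1 and 14. In 393 of the 396 the 4 values of one set did not overlap the 4 of the other. The calls rest on the same values, so this is not separate evidence. Over all genes tested, 5.48% had all 4 higher-dose libraries above all 4 lower-dose libraries and 6.15% had them all below. At an unadjusted p under 0.05 the count was 3746. The number of calls depended strongly on single libraries and doses. At 0.0005 μM, leaving out replicate 1 gave 45 calls, leaving out replicate 2 gave 166 and leaving out both gave 19, while the sign of all 396 log2 fold changes was kept in each of these 3 fits. Leaving out replicate 2 at 0.005 μM gave 197 calls, replicates 1 and 2 at 0.05 μM gave 162 and 198, and replicate 1 at 0.5 μM gave 89.

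**Figure D1:**
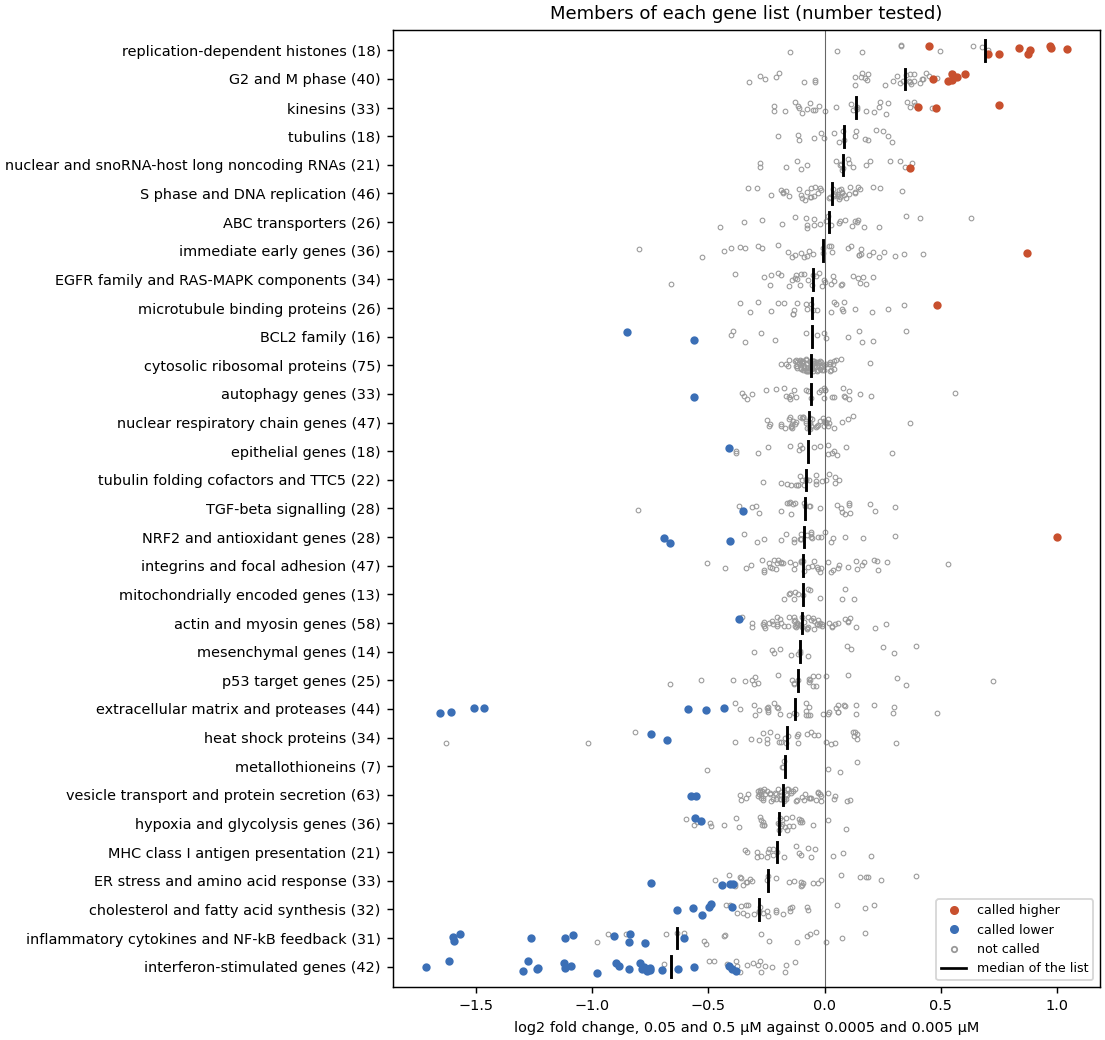
Log2 fold change (x axis) of the members of 33 gene lists (rows, ordered by their median, with the number tested) between 0.05 and 0.5 μM and 0.0005 and 0.005 μM Paclitaxel. Filled points are genes called higher or lower, open points genes that were not called, and black bars list medians; the interferon and cytokine lists lie farthest to the left, with medians of −0.66 and −0.63, and the histone list farthest to the right, at 0.69.

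Most of the interferon-stimulated genes tested fell at the higher doses. These genes encode the antiviral and DNA or RNA sensing proteins that cells make when type I interferon signals through its receptor. Of 42 members tested 25 fell, against 0.878% of all genes, and none rose, the log2 fold change was negative for all 42, and the list median was −0.66. In 32 of the 42 the higher-dose libraries were all below the lower-dose ones, against 6.15% of all genes. STAT2 and IRF9, factors that relay it, did not pass the test: STAT2 at −0.31 (adjusted p = 0.268) and IRF9 at −0.50 (adjusted p = 0.393). At the single step from 0.005 to 0.05 μM, described with the other steps, IRF9 was called lower (log2 fold change −1.14, adjusted p = 0.0463).

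A response element with 2 copies of the letters that IRF9-containing and other IRF complexes bind is known from many of these promoters. It was searched as GAAANNGAAA on both strands (TTTCNNTTTC on the other) in windows from 250 bases before to 50 after each annotated start, taken from RefSeq on GRCh38.p14. Of the 25 genes that fell 20 had a window, and at least 1 window held the element in 16 of them. Among members that did not pass the test it was found in 5 of 13, and over all genes with a window in 4.38% (3.57% of windows). OASL, IFIT2, MX2, OAS2 and DHX58 had no entry in the set of windows used here, which says nothing about their annotation. The stretches below are shown because they carry 2 or 3 matches each, upstream of genes that fell. IFI6 and HERC5 were chosen for them after their values were seen. Capitals mark the matches, which overlap in ISG15 and HERC5, and each stretch is 91 bases long and ends before the start of its gene.
IFIT1, chr10:89392493-89392583, plus strand: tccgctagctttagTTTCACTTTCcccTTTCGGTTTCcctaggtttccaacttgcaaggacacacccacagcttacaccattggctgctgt
IFIT3, chr10:89332399-89332489, plus strand: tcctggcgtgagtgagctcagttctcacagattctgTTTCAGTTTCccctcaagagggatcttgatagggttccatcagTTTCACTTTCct
ISG15, chr1:1013367-1013457, plus strand: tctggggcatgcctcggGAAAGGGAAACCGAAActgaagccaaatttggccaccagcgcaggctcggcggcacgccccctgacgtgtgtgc
IFI6, chr1:27672272-27672362, minus strand: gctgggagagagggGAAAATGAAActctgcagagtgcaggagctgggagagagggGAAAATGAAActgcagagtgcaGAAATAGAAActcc
HERC5, chr4:88456979-88457069, plus strand: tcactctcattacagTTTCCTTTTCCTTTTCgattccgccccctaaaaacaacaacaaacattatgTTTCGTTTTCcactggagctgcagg
A match says only that the letters are present. IFI6 had a log2 fold change of −0.75 (adjusted p = 0.0178) and HERC5 had a log2 fold change of −0.79 (adjusted p = 0.00617).

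OASL, an antiviral protein of the oligoadenylate synthetase family (chr12:121455566-121477049, GRCh37), had 96.8 and 95.6 CPM at 0.0005 μM, 63.2 and 62.3 at 0.005 μM, 30.02 and 25.5 at 0.05 μM, and 24.9 and 24.3 at 0.5 μM. Every library of a higher dose was below every library of a lower dose, and the 2 lower doses were themselves apart. OASL had a log2 fold change of −1.61 (SE 0.16, adjusted p = 0.000892), a 3.06-fold lower level. IFIT1, which binds viral RNA without a host cap, had 155 and 139 CPM at 0.0005 μM, 110.0 and 113 at 0.005 μM, 61.9 and 42.9 at 0.05 μM, and 56 and 60.4 at 0.5 μM. It separated the sets as well, with the lowest value in replicate 2 at 0.05 μM. IFIT1 had a log2 fold change of −1.23 (SE 0.14, adjusted p = 0.0012). Its neighbours on chromosome 10, IFIT2 (chr10:91043451-91069028) and IFIT3 (chr10:91087064-91137230), lie in one cluster with IFIT1 (chr10:91152303-91166244). IFIT2 had a log2 fold change of −1.28 (SE 0.13, adjusted p = 0.000892), and IFIT3 one of −1.12 (SE 0.14, adjusted p = 0.00279).

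ISG15, a ubiquitin-like protein that is attached to other proteins, had 92.4 and 104 CPM at 0.0005 μM, 62.9 and 60.8 at 0.005 μM, 43.2 and 37.1 at 0.05 μM, and 39.7 and 43.2 at 0.5 μM. The highest values were those of 0.0005 μM, and the 4 libraries of the higher doses lay close together. ISG15 had a log2 fold change of −0.98 (SE 0.16, adjusted p = 0.0137). MX1, a GTPase that blocks influenza and other viruses, was scarcer, with 8.76 and 9.42 CPM at 0.0005 μM, 7.18 and 6.46 at 0.005 μM, 5.33 and 4.38 at 0.05 μM, and 4.42 and 4.56 at 0.5 μM. Here too all higher-dose values were the lower ones. MX1 had a log2 fold change of −0.77 (SE 0.13, adjusted p = 0.0132). IFI44 fell from 45.7 ± 3.05 to 25.7 ± 2.5 CPM (SD, n = 4 each; log2 fold change −0.84, edgeR adjusted p = 0.0012), and XAF1, a partner of the apoptosis inhibitor XIAP, fell from 1.25 ± 0.126 to 0.383 ± 0.0254 CPM (SD, n = 4 each; log2 fold change −1.72, edgeR adjusted p = 0.00114), at a mean of only 0.383 CPM at the higher doses.

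The number of interferon genes that fell also depended on the lowest dose. It was 23 without replicate 2 at 0.0005 μM and 14 without replicate 1, and 9 of the 19 genes left without both were of this list, against 15 without both libraries of 0.05 μM and 15 without both of 0.5 μM. OASL, IFIT1, IFIT2, IFIT3, IFI44 and XAF1 passed the test in every one of the alternatives that gave a value for them. MX1 and ISG15 were lost in 6 of 24 each. Within the list, both libraries of 0.005 μM were below both of 0.0005 μM in 33 of 42 genes, and both of 0.05 μM below both of 0.005 μM in 36 of 42. From 0.05 to 0.5 μM the count was 7 lower and 6 higher. Over all genes these patterns were found in 28.1%, 25.0%, 23.3% and, for the rise at the last step, 18.3%. In 32 of 42 genes both untreated libraries of day 4 were below all 4 lower-dose libraries, a pattern met in 18.9% of all genes.

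**Figure D2:**
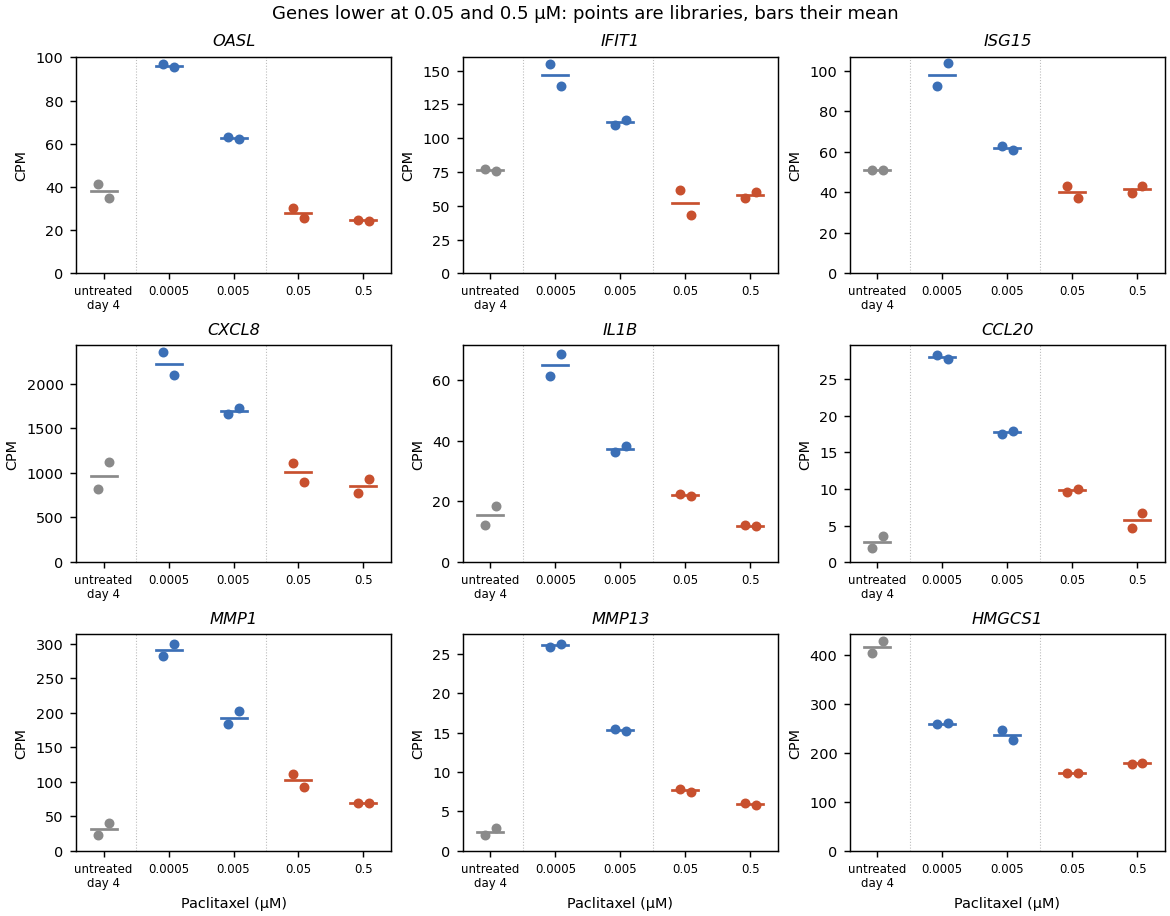
CPM (y axis, from 0) of 9 genes called lower at the higher doses, in the untreated libraries of day 4 (grey) and at the 4 doses of Paclitaxel (x axis, μM; blue for the lower and red for the higher doses). Points are single libraries and short bars the mean of 2; in 8 of the 9 genes the highest values are those of 0.0005 μM, and in HMGCS1 they are those of untreated cells.

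Some inflammatory cytokines fell as well. These are secreted signals, most of them targets of the factor NF-kB, that draw in leukocytes or act back on the tumour cells. The list also holds targets and members of the NF-kB pathway that are not secreted signals, such as NFKB1, RELB, NFKBIA, TNFAIP3 and ICAM1, none of them called between the sets, and the enzyme PTGS2, which was. Of 31 members tested 11 fell, against 0.878% of all genes, and none rose, with a list median of −0.63 and a negative value in 28. IL1B, the secreted form of interleukin 1, had 61.5 and 68.6 CPM at 0.0005 μM, 36.2 and 38.4 at 0.005 μM, 22.3 and 21.9 at 0.05 μM, and 12.2 and 11.8 at 0.5 μM. Its values stepped down at each dose and the 2 libraries of a dose lay close together. IL1B had a log2 fold change of −1.59 (SE 0.29, adjusted p = 0.0332). CCL20, which attracts cells carrying the receptor CCR6, had 28.3 and 27.7 CPM at 0.0005 μM, 17.6 and 17.8 at 0.005 μM, 9.59 and 10.02 at 0.05 μM, and 4.69 and 6.74 at 0.5 μM. The sets did not overlap, and the untreated libraries of day 4, at 1.88 and 3.51 CPM, were below all 8. CCL20 had a log2 fold change of −1.57 (SE 0.26, adjusted p = 0.0224).

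CXCL8, the neutrophil attractant interleukin 8, was the most abundant of these cytokines, with 2349.8 and 2100.3 CPM at 0.0005 μM, 1656 and 1724 at 0.005 μM, 1116 and 899.7 at 0.05 μM, and 774 and 932 at 0.5 μM. The lower-dose values lay above those of untreated cells of day 4, which were 816 and 1121 CPM, and the higher-dose values between or below them. CXCL8 had a log2 fold change of −1.08 (SE 0.15, adjusted p = 0.00465). PTGS2, the inducible cyclooxygenase that makes prostaglandins, had 286 and 277 CPM at 0.0005 μM, 220.2 and 222 at 0.005 μM, 148 and 166 at 0.05 μM, and 116 and 137 at 0.5 μM. Here the untreated cells, at 72.5 and 95 CPM, were below both sets. PTGS2 had a log2 fold change of −0.84 (SE 0.13, adjusted p = 0.00713). IL6 fell from 27.9 ± 6.07 to 15.7 ± 2.5 CPM (SD, n = 4 each; log2 fold change −0.84, edgeR adjusted p = 0.0199), and CXCL10, an interferon-induced chemokine, fell from 2.29 ± 0.496 to 1.06 ± 0.204 CPM (SD, n = 4 each; log2 fold change −1.11, edgeR adjusted p = 0.0135). The remaining genes of the list that fell were CCL5, CCL2, CSF3, CSF2 and CXCL1. Subunits and inhibitors of NF-kB itself, which are also its targets, did not pass the test, with NFKB1 at −0.03 (adjusted p = 0.924), NFKB2 at −0.12 (adjusted p = 0.686), RELB at −0.08 (adjusted p = 0.863) and NFKBIA at −0.43 (adjusted p = 0.121).

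The cytokine calls leaned on the extremes of dose. Their count was 6 without replicate 2 and 2 without replicate 1 at 0.0005 μM, 0 without both, 3 without replicate 1 at 0.5 μM, 6 without replicate 2 at 0.5 μM and 1 without both of that dose. With DESeq2 it was 19, in the fit with 4 dose groups 21 and without both libraries of 0.005 μM 18. Both libraries of the next dose were below both of the dose before in 19, 17 and 25 of the 31 genes at the 3 steps, against 28.1%, 25.0% and 23.3% of all genes. The list median stayed negative throughout, between −0.98 and −0.42. Of 24 alternatives the call was lost in 7 for IL1B, 6 for CXCL10, 5 for IL6, 4 for CCL20, 3 for CXCL8 and 2 for PTGS2.

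Several matrix metalloproteinases were among the largest falls. They are secreted enzymes that cut collagens and other proteins of the matrix. Among 44 tested genes of the matrix and its proteases 7 fell, against 0.878% of all genes, and none rose, and the list median was −0.13. Of the 7, MMP1, MMP3, MMP10 and MMP13 lie together on chromosome 11, from MMP10 at chr11:102641233-102651359 to MMP13 at chr11:102813724-102826461, and PLOD2 and ADAM17 were among the others. MMP1, the interstitial collagenase, had 282 and 300.2 CPM at 0.0005 μM, 184 and 202 at 0.005 μM, 112 and 93 at 0.05 μM, and 69.9 and 69.2 at 0.5 μM. Both libraries of each dose were below both of the dose before, and untreated cells of day 4 had 22.6 and 40.5 CPM. MMP1 had a log2 fold change of −1.51 (SE 0.19, adjusted p = 0.00445). MMP13, collagenase 3, had 25.9 and 26.3 CPM at 0.0005 μM, 15.5 and 15.2 at 0.005 μM, 7.89 and 7.52 at 0.05 μM, and 6.04 and 5.88 at 0.5 μM. The doses were separated in the same way. MMP13 had a log2 fold change of −1.61 (SE 0.20, adjusted p = 0.00493).

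MMP10, stromelysin 2, had 17.8 and 20.9 CPM at 0.0005 μM, 10.6 and 11 at 0.005 μM, 6.27 and 5.54 at 0.05 μM, and 3.67 and 3.8 at 0.5 μM. It stepped down at each dose. MMP10 had a log2 fold change of −1.65 (SE 0.26, adjusted p = 0.0202). MMP3, stromelysin 1, shares its counts with the overlapping identifier ENSG00000263313, and the pair fell from 14.2 ± 3.47 to 5.15 ± 2 CPM (SD, n = 4 each; log2 fold change −1.47, edgeR adjusted p = 0.036). PLOD2, a lysyl hydroxylase of collagen, fell from 222 ± 24.3 to 157 ± 7.14 CPM (SD, n = 4 each; log2 fold change −0.51, edgeR adjusted p = 0.0255). The call was lost in 9 of 24 alternatives for PLOD2 and in 8 for MMP3. The sets did not overlap in any of these. The list count of 7 was 2 without both libraries of 0.0005 μM, MMP1 and MMP13, 2 without replicate 1 of that dose, 5 without replicate 2, 2 without replicate 1 of 0.5 μM, 3 without replicate 2 of 0.05 μM, 4 without replicate 1 of 0.05 μM, 3 without both of that dose and 1 without both of 0.5 μM. The fit of all 12 libraries gave 4 and that with 4 dose groups 11. Over the whole list the direction was mixed: 30 values were negative and 14 positive. Outside the list, and looked up after its value was seen, the metalloproteinase MMP19 was called higher (log2 fold change 0.72, adjusted p = 0.0116), as was the collagen COL3A1 named above.

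The AP-1 element is known from promoters of metalloproteinases and of CXCL8. It was searched as TGANTCA, which reads the same on both strands, and was found in 1 of 3 genes of this list that fell and had a window, MMP10, and in 1 of 8 such cytokine genes, CXCL8. Among members that did not pass the test it was found in 3 of 26 and 3 of 16. It was present in 9.37% of all genes with a window and 7.71% of windows. MMP1, MMP3 and MMP13 had no entry in the set of windows used here. Capitals mark the match.
MMP10, chr11:102780638-102780728, minus strand: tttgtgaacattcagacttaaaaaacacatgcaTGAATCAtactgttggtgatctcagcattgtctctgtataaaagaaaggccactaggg
CXCL8, chr4:73740419-73740509, plus strand: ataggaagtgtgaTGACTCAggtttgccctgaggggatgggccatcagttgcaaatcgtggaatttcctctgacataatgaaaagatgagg

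Lists of sterol and fatty acid synthesis, of the endoplasmic reticulum and of secretion held fewer calls, to be read next to the 1.70% called over all genes. For sterol and fatty acid synthesis 6 of 32 fell and none rose, with a list median of −0.28. HMGCS1, which makes the precursor of mevalonate, had 259 and 261 CPM at 0.0005 μM, 248 and 226 at 0.005 μM, 159 and 159 at 0.05 μM, and 178 and 179.6 at 0.5 μM. Untreated cells of day 4 were higher than all 8 treated libraries, at 405 and 429 CPM. HMGCS1 had a log2 fold change of −0.57 (SE 0.09, adjusted p = 0.0116). ACSS2, an acetyl-CoA synthetase, fell from 49.3 ± 5.92 to 34.5 ± 1.64 CPM (SD, n = 4 each; log2 fold change −0.52, edgeR adjusted p = 0.0155), TM7SF2, a sterol reductase, fell from 18.2 ± 1.8 to 13.1 ± 0.435 CPM (SD, n = 4 each; log2 fold change −0.49, edgeR adjusted p = 0.0183), and STARD4, a sterol carrier, fell from 101 ± 6.96 to 72 ± 7.44 CPM (SD, n = 4 each; log2 fold change −0.50, edgeR adjusted p = 0.0229). No gene of this list was called without both libraries of 0.0005 μM, without both of 0.05 μM or without replicate 1 of 0.0005 μM, and 4 were without replicate 2. Counts were also lower without replicate 1 of 0.05 μM (3), replicate 2 of 0.05 μM (2), replicate 1 of 0.5 μM (2) and both of 0.5 μM (2), and it was 10 without both of 0.005 μM, 11 with DESeq2 and with no filter, 15 with 4 dose groups and 3 in the fit of all 12 libraries.

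Among 33 genes of the unfolded protein and amino acid response 4 fell, against 0.878% of all genes, and none rose, with a median of −0.24. DNAJB9, a chaperone of the endoplasmic reticulum, had 47.7 and 50.2 CPM at 0.0005 μM, 37.5 and 42.5 at 0.005 μM, 28.5 and 24.1 at 0.05 μM, and 27.4 and 26.7 at 0.5 μM. All 4 higher-dose libraries were below the lower-dose ones. DNAJB9 had a log2 fold change of −0.75 (SE 0.10, adjusted p = 0.00412). DNAJC3, an inhibitor of the kinase PERK, fell from 74.5 ± 6.7 to 57.1 ± 2.37 CPM (SD, n = 4 each; log2 fold change −0.39, edgeR adjusted p = 0.0403), SDF2L1, a chaperone partner, fell from 24.9 ± 3.21 to 18.4 ± 0.815 CPM (SD, n = 4 each; log2 fold change −0.44, edgeR adjusted p = 0.0424), and VLDLR, a lipoprotein receptor, fell from 34.8 ± 2.48 to 26.4 ± 1.32 CPM (SD, n = 4 each; log2 fold change −0.41, edgeR adjusted p = 0.0273). Of 63 genes of vesicle transport and secretion 2 fell, the Golgi coat regulator ARFGAP3, which fell by 0.58 on the log2 scale (adjusted p = 0.0135), and the retrieval receptor KDELR3, which fell by 0.55 on the log2 scale (adjusted p = 0.0392). Of 36 genes of hypoxia and glycolysis 2 fell, ANGPTL4, which fell by 0.53 on the log2 scale (adjusted p = 0.0403), and the collagen prolyl hydroxylase P4HA1, which fell by 0.56 on the log2 scale (adjusted p = 0.0474). The medians of these last lists were −0.18 and −0.20. Of 24 alternatives the call was lost in 13 for P4HA1, 12 each for DNAJC3 and SDF2L1, 11 for ANGPTL4 and 10 each for KDELR3 and VLDLR.

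Heat shock genes gave 2 falls among 34, next to 0.878% over all genes, DNAJB9 and the HSP70 partner DNAJB1, with a list median of −0.16. DNAJB1 had 366 and 336 CPM at 0.0005 μM, 241 and 254 at 0.005 μM, 209 and 191 at 0.05 μM, and 193 and 163 at 0.5 μM. Untreated cells of day 4, at 397 and 381 CPM, were above all 8. DNAJB1 had a log2 fold change of −0.68 (SE 0.14, adjusted p = 0.0313). Its call was lost in 9 of 24 alternatives. HSPA6, an HSP70 that most cells make only under stress, had 8.4 and 6.35 CPM at 0.0005 μM, 3.76 and 4.18 at 0.005 μM, 2.75 and 2.25 at 0.05 μM, and 1.14 and 1.19 at 0.5 μM. The sets did not overlap, but the spread was wide and the test was missed, whereas 13 of 24 alternatives called the gene. HSPA6 had a log2 fold change of −1.63 (SE 0.34, adjusted p = 0.0517). HSPA1A, a stress-induced HSP70 as well, was at 4.84 ± 1.54 CPM at the lower and 2.76 ± 0.751 CPM at the higher doses (SD, n = 4 each; log2 fold change −0.81, SE 0.24, edgeR adjusted p = 0.116). Without both libraries of 0.0005 μM the list median was 0.01.

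Among the lists, replication-dependent histone genes had the highest median and the most genes called higher. They encode the histones that package newly made DNA, and most of their transcripts end in a stem-loop and not in a poly(A) tail, so their level in a library also depends on how RNA was selected, which is not given in the sources used here. Of 52 listed genes 29 could not be matched to an identifier of the count table and 5 were removed by the filter on low counts. Of the 18 tested, which are therefore not all members, 9 rose, against 0.818% of all genes, and none fell, with a median of 0.69. H1-2, a linker histone (chr6:26055968-26056698), had 60.03 and 77.2 CPM at 0.0005 μM, 86.5 and 100.4 at 0.005 μM, 200.1 and 158 at 0.05 μM, and 146 and 133 at 0.5 μM. The sets did not overlap, and untreated cells of day 4, at 23.2 and 24.7 CPM, were below both. H1-2 had a log2 fold change of 0.97 (SE 0.15, adjusted p = 0.0109).

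H4C8, a gene for histone H4 (chr6:26277837-26285866), had 5.96 and 7.11 CPM at 0.0005 μM, 6.52 and 7.77 at 0.005 μM, 14.2 and 14.3 at 0.05 μM, and 10.2 and 10.4 at 0.5 μM. Its highest values were at 0.05 μM. H4C8 had a log2 fold change of 0.84 (SE 0.13, adjusted p = 0.00794). H4C14 and H4C15 on chromosome 1 have near-identical counts and stand for 1 measurement, which rose from 8.76 ± 0.506 to 16.2 ± 1.54 CPM (SD, n = 4 each; log2 fold change 0.87, edgeR adjusted p = 0.000892) for H4C14. H2BC4 rose from 2.7 ± 0.273 to 5.61 ± 0.333 CPM (SD, n = 4 each; log2 fold change 1.04, edgeR adjusted p = 0.00114), H2BC5 rose from 11.2 ± 1.14 to 18.3 ± 1.34 CPM (SD, n = 4 each; log2 fold change 0.70, edgeR adjusted p = 0.00412) and the linker histone H1-4 rose from 3.54 ± 0.968 to 7.01 ± 1.02 CPM (SD, n = 4 each; log2 fold change 0.97, edgeR adjusted p = 0.016). The count of 9 was 7 without replicate 2 and 5 without replicate 1 of 0.0005 μM, 3 without both and 4 without both of 0.05 μM. Both libraries of 0.05 μM were above both of 0.005 μM in 16 of the 18 genes. That held at the first step for 3 and at the last for 2. The same patterns were seen in 26.1%, 30.2% and 18.3% of all genes. In 12 of the 18 both untreated libraries of day 4 were below all 4 lower-dose libraries, against 18.9% of all genes.

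**Figure D3:**
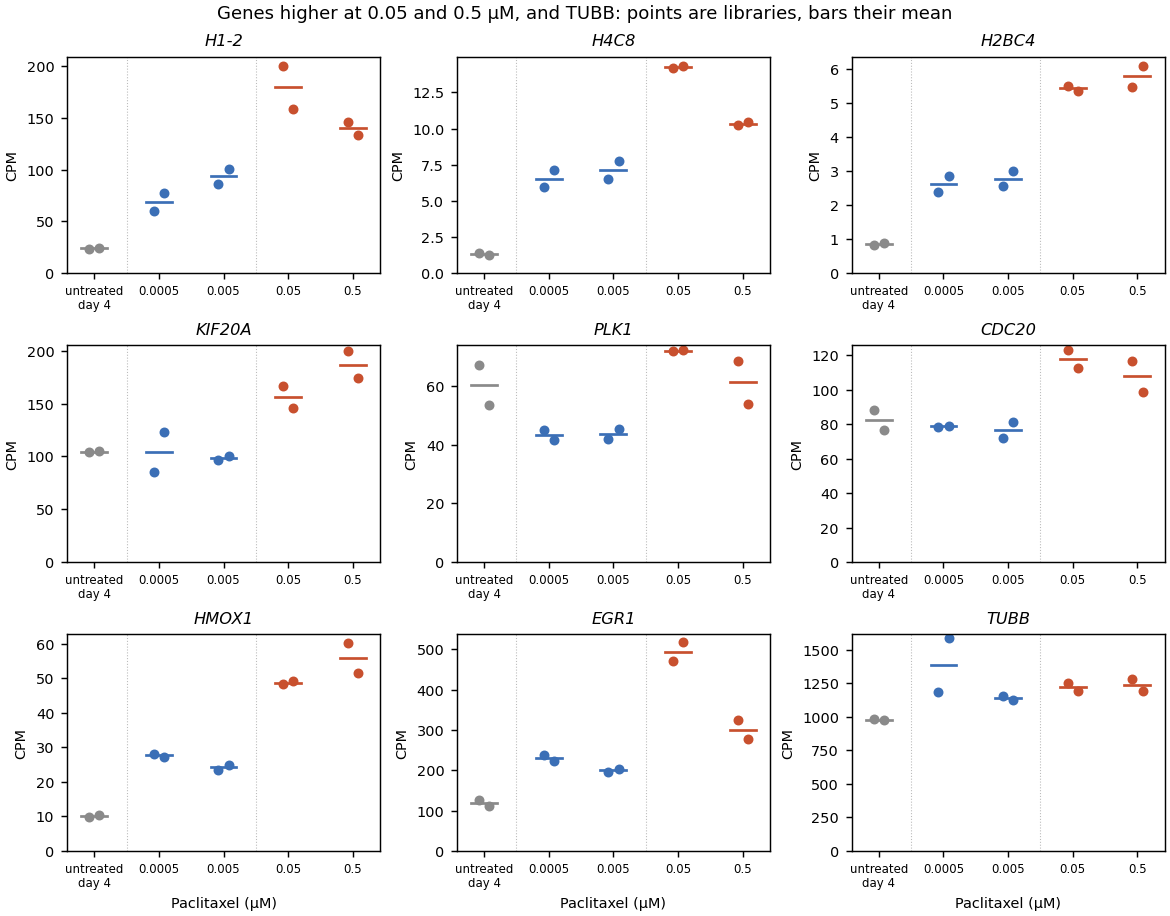
CPM (y axis, from 0) of 8 genes called higher at the higher doses, and of TUBB, which was not called, in the untreated libraries of day 4 (grey) and at the 4 doses of Paclitaxel (x axis, μM; blue for the lower and red for the higher doses). Points are single libraries and short bars the mean of 2; the histone genes and HMOX1 have their lowest values in untreated cells, whereas PLK1, CDC20 and KIF20A do not.

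Some genes of late G2 and mitosis rose. Of 40 tested 6 rose, against 0.818% of all genes, and none fell, the list median was 0.35, and 32 values were positive. These rises are relative to the lower doses. Untreated cells of day 4 had a list median of 0.29 on the log2 scale relative to the lower doses and −0.04 relative to the higher doses. PLK1, the kinase that drives entry into and passage through mitosis, had 45 and 41.6 CPM at 0.0005 μM, 42.1 and 45.2 at 0.005 μM, 71.9 and 72.3 at 0.05 μM, and 68.4 and 54 at 0.5 μM. The lower-dose libraries lay close together and the higher-dose ones above them, with replicate 2 at 0.5 μM the lowest. PLK1 had a log2 fold change of 0.61 (SE 0.09, adjusted p = 0.00871). CDC20, which switches on the anaphase promoting complex, had 78.5 and 79.1 CPM at 0.0005 μM, 71.8 and 81.2 at 0.005 μM, 123 and 113 at 0.05 μM, and 117 and 98.5 at 0.5 μM. All 4 higher-dose values were above the lower-dose ones. CDC20 had a log2 fold change of 0.53 (SE 0.09, adjusted p = 0.0127). CENPA, the histone H3 of centromeres, rose from 19.1 ± 0.583 to 28.2 ± 2.95 CPM (SD, n = 4 each; log2 fold change 0.55, edgeR adjusted p = 0.0112), and PSRC1, a spindle protein, rose from 40.3 ± 3.39 to 60.3 ± 5.82 CPM (SD, n = 4 each; log2 fold change 0.57, edgeR adjusted p = 0.0112). BIRC5 and CCNB2 completed the 6.

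CCNB1, MKI67 and TOP2A, all markers of cycling cells, were not called, although CCNB1 was called in 9 and MKI67 in 6 of 24 alternatives. CCNB1, cyclin B1, had 149 and 188 CPM at 0.0005 μM, 156 and 172 at 0.005 μM, 245 and 183 at 0.05 μM, and 289.7 and 259 at 0.5 μM. Replicate 2 at 0.05 μM lay within the range of the lower doses. CCNB1 had a log2 fold change of 0.55 (SE 0.14, adjusted p = 0.0634). MKI67, a protein of the chromosome surface, had 127 and 159 CPM at 0.0005 μM, 133 and 128 at 0.005 μM, 173 and 180.3 at 0.05 μM, and 178 and 179.6 at 0.5 μM. All 4 higher-dose libraries were above the lower-dose ones. MKI67 had a log2 fold change of 0.37 (SE 0.09, adjusted p = 0.0684). TOP2A, the topoisomerase of replicating cells, was at 358 ± 44.5 CPM at the lower and 302 ± 43.1 CPM at the higher doses (SD, n = 4 each; log2 fold change −0.25, SE 0.13, edgeR adjusted p = 0.354). Among 46 genes of S phase and replication 0 were called by edgeR, with a median of 0.03 and 6 at an unadjusted p under 0.05. DESeq2 and the other alternatives gave 0 to 1 calls for this list. The G2 and M phase count was 7 without replicate 2 and 1 without replicate 1 of 0.0005 μM, 0 without both, 2 without both of 0.5 μM, 3 without replicate 1 of 0.5 μM, 13 without both of 0.05 μM and 18 without replicate 2 of 0.05 μM. It was 1 in the fit of all 12 libraries, 14 with DESeq2, 16 with no filter, 22 with 4 dose groups and 18 with offsets for GC content and length.

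A few motor proteins of the spindle rose. Of 33 kinesins tested 3 rose, next to 0.818% over all genes, and none fell, with a median of 0.14. Untreated cells of day 4 had a list median of 0.241 on the log2 scale relative to the lower doses and 0.145 relative to the higher doses. KIF20A, a kinesin of the central spindle, had 85 and 123 CPM at 0.0005 μM, 96.6 and 100.2 at 0.005 μM, 167 and 146 at 0.05 μM, and 199 and 174 at 0.5 μM. Replicate 2 of 0.0005 μM was the highest of its set. KIF20A had a log2 fold change of 0.75 (SE 0.13, adjusted p = 0.0124). KIF18B, which shortens microtubules, rose from 17.8 ± 1.94 to 25 ± 1.33 CPM (SD, n = 4 each; log2 fold change 0.48, edgeR adjusted p = 0.0198), and KIFC1, which clusters spindle poles and shares its counts with the identifier ENSG00000233450, rose from 48.2 ± 2.63 to 64.2 ± 3.56 CPM (SD, n = 4 each; log2 fold change 0.40, edgeR adjusted p = 0.026). TPX2, which nucleates spindle microtubules, was the only one of 26 microtubule binding proteins called (3.85%, beside 1.70% of all genes), and rose from 172 ± 17.6 to 242 ± 11.8 CPM (SD, n = 4 each; log2 fold change 0.49, edgeR adjusted p = 0.0293). The call was lost in 11 of 24 alternatives for TPX2 and KIFC1 and in 9 for KIF18B. The kinesin count of 3 was 1 or 0 in 4 of the 8 fits that leave out 1 library, with 0 for replicate 1 of 0.0005 μM, and 6 without replicate 2 of 0.05 μM.

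The tubulins themselves, the target of the drug, were not called between the sets. Of 18 tested 0 passed edgeR's test, 2 had an unadjusted p under 0.05, DESeq2 called 0, and the median was 0.08. In 12 of the 18 both untreated libraries of day 4 were below all 4 lower-dose libraries, against 18.9% of all genes. TUBB, the main beta tubulin, had 1182 and 1586 CPM at 0.0005 μM, 1158 and 1127 at 0.005 μM, 1253 and 1196 at 0.05 μM, and 1282 and 1197 at 0.5 μM. Replicate 2 at 0.0005 μM stood above all the rest. TUBB had a log2 fold change of −0.05 (SE 0.13, adjusted p = 0.916). For TUBA1B, TUBB4B and TUBB2A the log2 fold changes were −0.0028, −0.02 and 0.14, with adjusted p of 0.995, 0.969 and 0.65. TUBB6, at 0.19 (adjusted p = 0.297), and TUBE1, counted together with ENSG00000264528, at 0.25 (adjusted p = 0.169), had the smallest p of the list. Of 22 tubulin folding cofactors and TTC5, which mediates the decay of tubulin transcripts, 0 were called by edgeR and 0 by DESeq2, 1 had an unadjusted p under 0.05, and the median was −0.08. ABCB1, the drug efflux pump, was low in all 8 libraries and was at 0.338 ± 0.0389 CPM at the lower and 0.528 ± 0.11 CPM at the higher doses (SD, n = 4 each; log2 fold change 0.63, SE 0.24, edgeR adjusted p = 0.212).

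HMOX1, which breaks down haem and is induced by oxidative stress, had the largest rise among named genes of at least 5 CPM. It had 28.2 and 27.1 CPM at 0.0005 μM, 23.5 and 24.8 at 0.005 μM, 48.3 and 49.1 at 0.05 μM, and 60.2 and 51.4 at 0.5 μM. The sets did not overlap, and untreated cells of day 4 were below both at 9.92 and 10.5 CPM. HMOX1 had a log2 fold change of 1.0 (SE 0.10, adjusted p = 0.000892), and it passed the test in all 24 alternatives. The other genes of the antioxidant factor NRF2 gave values in both directions. Of 28 tested 4 were called (14.3%, beside 1.70% of all genes). HMOX1 alone rose, while 3 fell: AKR1C1, which fell by 0.66 on the log2 scale (adjusted p = 0.0135), AKR1C2, which fell by 0.69 on the log2 scale (adjusted p = 0.0263), and AKR1B1, which fell by 0.41 on the log2 scale (adjusted p = 0.046), all reductases of aldehydes or ketones. Their calls were lost in 4, 8 and 13 of 24 alternatives in this order. AKR1C1 and AKR1C2 are close copies. Only uniquely aligned reads were kept, so reads that fit both equally were left out, and the effect on their counts was not tested. TSPAN2, a tetraspanin, rose from 4.06 ± 0.538 to 7.17 ± 0.923 CPM (SD, n = 4 each; log2 fold change 0.81, edgeR adjusted p = 0.00794) and completed the 10 largest rises, together with NR1D1, a repressor of the circadian clock, which rose from 19.6 ± 0.784 to 36.7 ± 7.53 CPM (SD, n = 4 each; log2 fold change 0.89, edgeR adjusted p = 0.00412).

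EGR1, a transcription factor made within minutes of growth factor signals, was the only one of 36 immediate early genes called (2.78%, beside 1.70% of all genes), with a list median of −0.01. It had 239 and 222 CPM at 0.0005 μM, 196 and 203 at 0.005 μM, 470.1 and 517 at 0.05 μM, and 324 and 276 at 0.5 μM. Values were highest at 0.05 μM, and those at 0.5 μM lay between these and the lower doses. EGR1 had a log2 fold change of 0.87 (SE 0.17, adjusted p = 0.0261). The call was lost in 12 of 24 alternatives. FOS was not called between the sets but was called at each single step of dose, with 82.4 and 73.4 CPM at 0.0005 μM, 47.9 and 48.1 at 0.005 μM, 86.4 and 91.5 at 0.05 μM, and 52.3 and 42.2 at 0.5 μM. Both libraries at 0.005 μM and both at 0.5 μM were below all those at 0.0005 and 0.05 μM. The list as a whole followed this order. Both libraries of the next dose were below both of the dose before in 30 of 36 genes at the first step, in 1 at the second and in 30 at the third, and above them in 2, 30 and 0. Over all genes the first pattern was met in 28.1%, 25.0% and 23.3%, and the second in 30.2%, 26.1% and 18.3%. Other lists held the same order, such as epithelial genes, with 12 below, 10 above and 13 below of 18. Genes of the matrix and its proteases had 28, 22 and 30 of 44. The steps share libraries, so these counts are not independent of each other. The log2 fold change between the sets was −0.80 for FOSB (adjusted p = 0.401), −0.40 for ATF3 (adjusted p = 0.367), 0.02 for CCN2 (adjusted p = 0.969), and none was called.

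Several lists of cell death, adhesion and growth signals held few calls. In the BCL2 family BCL2A1, an inhibitor of apoptosis and a known NF-kB target, fell from 39.2 ± 6.54 to 21.9 ± 4.01 CPM (SD, n = 4 each; log2 fold change −0.85, edgeR adjusted p = 0.0132), and BID, which links death receptors to mitochondria, fell from 21.9 ± 2.12 to 14.9 ± 1.19 CPM (SD, n = 4 each; log2 fold change −0.56, edgeR adjusted p = 0.0135), which makes 2 of 16 tested (12.5%, beside 1.70% of all genes). Of 25 p53 targets 0 were called by edgeR and 5 by DESeq2, and 8 had an unadjusted p under 0.05, with a log2 fold change of −0.53 (adjusted p = 0.111) for the cell cycle inhibitor CDKN1A and a log2 fold change of −0.66 (adjusted p = 0.071) for the secreted factor GDF15. Next to the 1.70% called over all genes, 1 gene each fell among 33 autophagy genes (WIPI1, −0.56), 28 genes of TGF-β signalling (TGFBR1, −0.35), 58 of actin and myosin (CALD1, −0.37) and 18 epithelial genes (CLDN7, −0.41), with adjusted p between 0.0129 and 0.0428. SNHG15 was the only one of 21 long noncoding RNAs called, at 0.37. Of 24 alternatives the call was lost in 14 for TGFBR1, 13 for SNHG15, 12 each for CALD1 and CLDN7, 6 each for BCL2A1 and BID and 5 for WIPI1. No call was made among 14 mesenchymal genes, with a log2 fold change of −0.11 (adjusted p = 0.787) for VIM and a log2 fold change of 0.40 (adjusted p = 0.13) for SNAI1, nor among 47 genes of integrins and focal adhesion, 34 of EGFR and RAS-MAPK signalling, 26 ABC transporters, 21 of antigen presentation, 75 ribosomal proteins, 47 nuclear respiratory chain genes, 13 mitochondrially encoded genes and 7 metallothioneins. Their counts at an unadjusted p under 0.05 were 3, 11, 5, 6, 7, 0, 3, 0 and 1 in this order, and with DESeq2 0, 5, 4, 1, 0, 0, 0, 0 and 1.

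**Figure D4:**
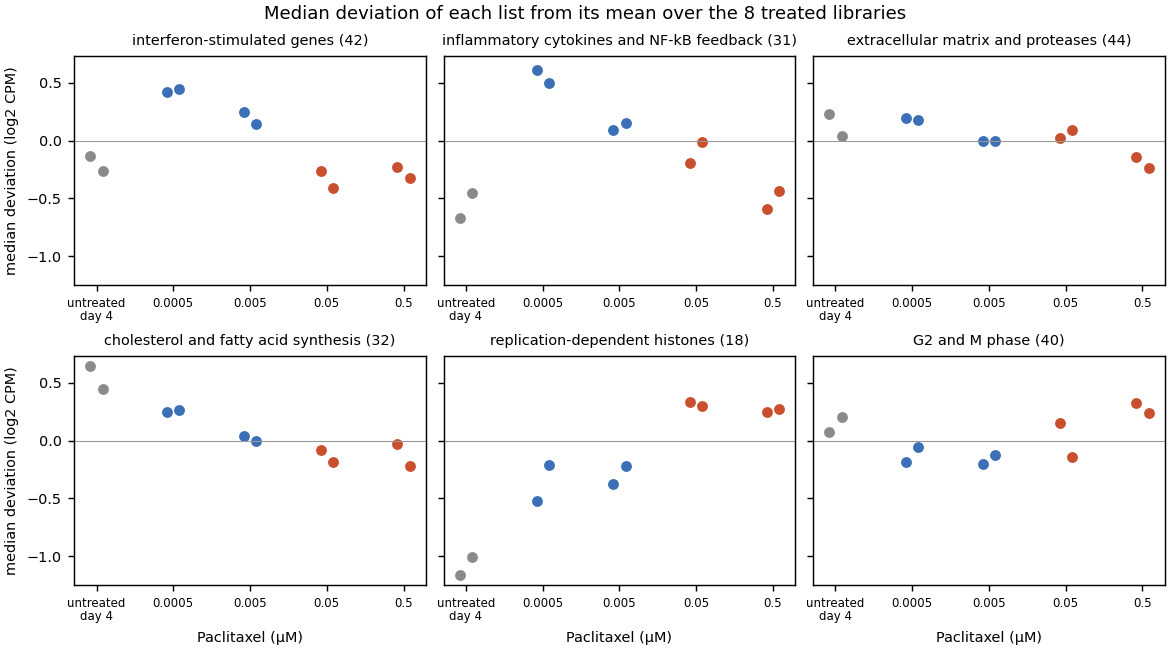
Median over the genes of a list of the deviation of log2 CPM from each gene's mean over the 8 treated libraries (y axis), for 6 lists, in the untreated libraries of day 4 (grey) and at the 4 doses of Paclitaxel (x axis, μM; blue for the lower and red for the higher doses). Each point is a library; the interferon list lies at 0.42 and 0.45 at 0.0005 μM, at 0.24 and 0.14 at 0.005 μM and between −0.41 and −0.23 at the higher doses, and the histone list is negative in the 4 lower-dose and positive in the 4 higher-dose libraries.

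Single steps of dose were tested in a fit with the 4 doses as groups. From 0.0005 to 0.005 μM 14 genes were called (0.0600%), all lower. From 0.005 to 0.05 μM 279 were called (1.20%), 220 higher and 59 lower. From 0.05 to 0.5 μM 9 were called (0.0386%), all lower. With a symbol they numbered 10, 227 and 8. Some of the rest had the log2 fold change of a named gene, such as CNOT3 (0.43), so not all are separate genes. Across genes, the deviation of a library's log2 CPM from the gene's mean was correlated with GC content. The values were 0.169 and −0.254 at 0.0005 μM, −0.0828 and −0.0907 at 0.005 μM, 0.333 and 0.455 at 0.05 μM, and −0.175 and −0.374 at 0.5 μM. The part of GC content in the steps was not tested. The first step held IL1B, MMP13, MMP10, ISG15, OASL and IGFBP3 of the 396, together with FOS, ICAM1, LOX and HSPA1B, which is listed with 4 identifiers without a symbol. The last step held IL1B, MMP3 with its partner identifier, and CXCL1 of the 396, together with FOS, ICAM1, FN1, RRAD and MYADM. IL1B was called lower at all 3 steps, whereas FOS was lower at the first and the last step and higher at the middle one. Genes named here from the steps were chosen after their values were seen. These counts moved with single libraries, where a dose left with 1 library was assumed to vary like the other doses: the middle step gave 7 without replicate 1 and 18 without replicate 2 of 0.005 μM and 442 without replicate 1 of 0.05 μM, the first step gave 869 without replicate 1 of 0.05 μM and 0 without either library of 0.005 μM, the last gave 893 without replicate 1 of 0.05 μM and 0 without replicate 2 of 0.5 μM, and all 3 steps gave 0 in the fit of all 12 libraries.

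Against the level without drug the called genes fell into different places. Of the 205 genes lower at the higher doses, the untreated cells of day 4 lay above the mean of the lower doses in 61, between the means of both sets in 77 and below that of the higher doses in 67. Over all genes with a negative log2 fold change these shares were 51.4%, 16.2% and 32.5%. Of the 191 genes higher at the higher doses, untreated cells lay below the mean of the lower doses in 113, between the means in 69 and above that of the higher doses in 9, against 49.6%, 18.2% and 32.1% over all genes with a positive log2 fold change. Called genes have a wider gap between the means of the sets than most genes, so the share between the means is not a like comparison. No untreated library entered the test.

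**Figure D5:**
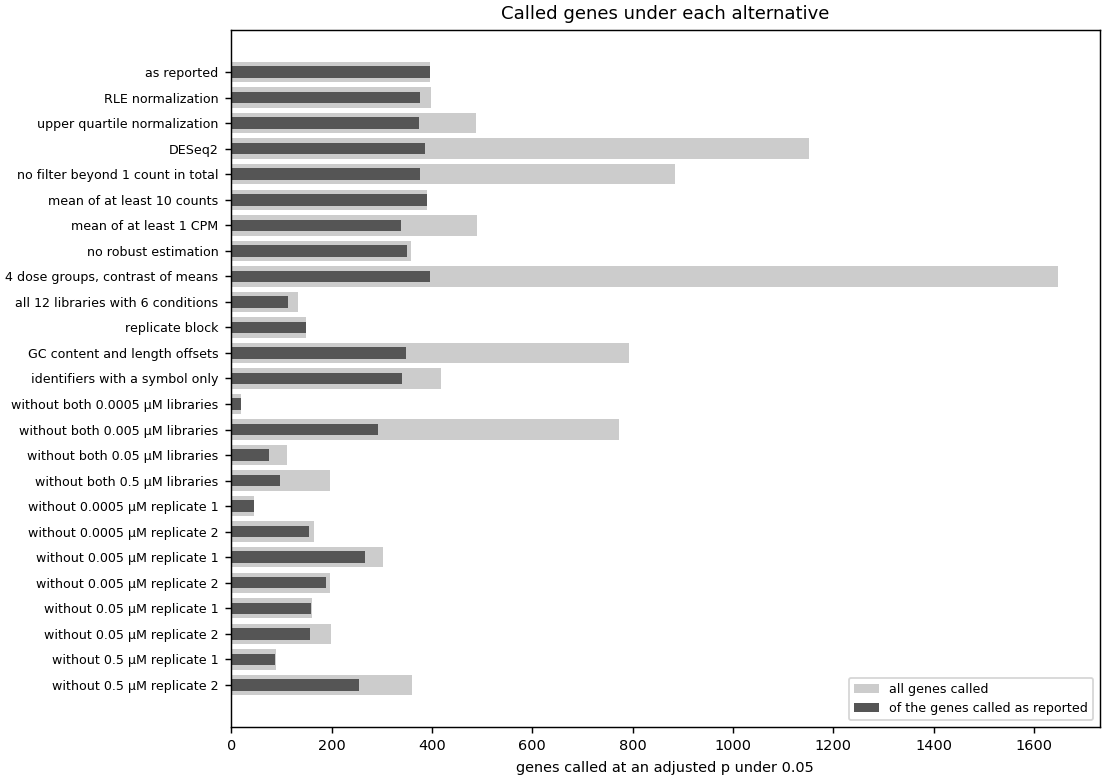
Number of genes called between the higher and the lower doses (x axis) as reported and under 24 alternatives (rows). Light bars are all genes called and dark bars those among the 396 called as reported; the count runs from 19 without both libraries of 0.0005 μM to 1648 with 4 dose groups.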

How the data were processed

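The authors trimmed paired-end reads with Trimmomatic 0.39, checked them with FastQC 0.11.9, aligned them to GRCh37 with STAR 2.7.5, kept uniquely aligned reads and counted those on exons with Rsubread. They deposited the whole-number counts of 63568 identifiers, not normalised, and 43631 of these have a symbol. The strand setting and RNA selection are not given in the sources used here. Columns were assigned to samples by label. Replicates differed beyond sampling noise (chi-square of 7.37 to 42.9 per gene).

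Genes with too few counts were removed with edgeR's filter, libraries were scaled by TMM, and the dose sets were compared with the quasi-likelihood test in edgeR 4.0.16 (R 4.3.3, limma 3.58.1) with Benjamini-Hochberg adjustment over all 23346 genes, the common biological coefficient of variation being 13.3%. CPM are counts scaled by the TMM-adjusted library size. The SE is that of the log2 fold change. Alternatives included DESeq2 1.42.0. Code was tested on simulated data.

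Named genes were the 10 largest rises and falls among called genes with a symbol, at least 5 CPM and no overlap of the sets, up to 4 called members a list, up to 2 where none was called, and a fixed set of drug, stress and cycle genes. Members and lists were chosen with earlier results of these data known. Of 1173 list entries 33 were unmatched, 29 of them histones. Genes whose counts agree within 1% with another identifier are named with it. Promoter windows are RefSeq GRCh38.p14, another build than the counts. Some genes are not reported here.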

Additional observations from a re-analysis of the deposited data

Results flagged for a closer look

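Of 178 values checked within a set of 4 libraries, 7 had 1 library set apart by Dixon's test, by which chance sets apart about 1 in 20 sets of 4. H2BC5 was at 20.3 CPM in replicate 2 at 0.5 μM, against 17.4 to 17.8 CPM in the other higher-dose libraries. PSRC1 was at 45.4 CPM in replicate 2 at 0.005 μM, against 38.1 to 39.1 CPM. STARD4 was at 90.7 CPM in the same library, against 103 to 106 CPM. KDELR3 was at 21.5 CPM in replicate 2 at 0.05 μM, against 27 to 28 CPM. TUBB reached 1590 CPM in replicate 2 at 0.0005 μM and 1127 to 1182 CPM in the other lower-dose libraries. That library also had 7.91% of its counts in its 10 most abundant genes, against 6.3% to 6.51%, and 10.5% of its counts on identifiers without a symbol, against 10.6% in each of the others. The cause of none of these was tested.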

How the results depend on the processing

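Against 396 calls, 191 higher and 205 lower, DESeq2 gave 1152 (452 and 700), no filter beyond 1 count 885 (391 and 494), 4 dose groups 1648 (769 and 879), GC and length offsets 793 (388 and 405) and all 12 libraries 133 (41 and 92). Without both libraries of a dose there were 19 (8 and 11) at 0.0005 μM, 773 (318 and 455) at 0.005 μM, 111 (57 and 54) at 0.05 μM and 197, of which 30 lower, at 0.5 μM. Without 1 library there were 45 to 360, 24 to 238 and 21 to 186. The other 6 alternatives, identifiers with a symbol only (chosen after seeing the data) among them, gave 358 to 490. The single steps of 14, 279 and 9 calls gave 0 in all 12 libraries, and without 1 library 0 to 869, 7 to 442 and 0 to 893. The causes were not tested beyond what fewer libraries bring.

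Libraries share only a replicate number. Deviations of same-numbered libraries correlated between −0.597 and 0.255, over 0.1 in 2 of 6 pairs of doses, so the numbers were not used as pairs. With the replicate block 150 genes were called (70 higher and 80 lower), all among the 396, and 9 and 181 at the first and second step. It left 5 of 11 calls for the cytokines and 3 each for the sterol and matrix lists, of 6 and 7.

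Of 792 list medians under the alternatives, 752 kept their sign. Of those that did not, only the heat shock median is named here. Without both libraries of 0.0005 μM the sign turned for the heat shock median (0.0141), ATF3 (0.00298), TUBB (0.12), TUBA1B (0.151), TUBB4B (0.0873) and VIM (0.107), none of these genes being called as reported. Without both of 0.005 or of 0.05 μM it turned for FOS (−0.219, −0.431), TUBB2A (−0.00181, −0.0382), CCN2 (−0.178, −0.212) and, at 0.05 μM, TUBA1B (0.055). Without both of 0.5 μM it turned for TUBB4B (0.0498) and VIM (0.0148). Over the fits without 1 library both signs were met for FOS (−0.0664 to 0.286), TUBB (−0.102 to 0.0837), TUBA1B (−0.0552 to 0.0907), TUBB4B (−0.0646 to 0.0734) and CCN2 (−0.0565 to 0.154). With upper quartile scaling and with a mean of at least 1 CPM it turned for TUBA1B (0.0232, 0.0174) and TUBB4B (0.00714, 0.00315), with 4 dose groups, all 12 libraries and symbols only for TUBA1B (0.0018, 0.000875, 0.00712), and with GC and length offsets for CCN2 (−0.000641). Genes near 1 CPM, XAF1 among them, rest on few counts.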

Other observations

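Genes of the circadian clock were listed after NR1D1 had been seen among the largest rises, so their count is a description. Of 20 tested, 4 rose at the higher doses, against 0.818% of all genes, and none fell, with a median log2 fold change of 0.119. The 4 are known as repressors of the clock: NR1D1 (log2 fold change 0.89), PER2 (0.73), BHLHE41 (0.65) and PER1 (0.63). Other repressors were not called, with 0.32 for PER3 (edgeR adjusted p = 0.103), 0.34 for CRY2 (adjusted p = 0.0827), 0.10 for CRY1 (adjusted p = 0.565), 0.11 for BHLHE40 (adjusted p = 0.746), 0.0052 for NR1D2 (adjusted p = 0.987) and −0.15 for NFIL3 (adjusted p = 0.51). The activators BMAL1 and CLOCK were not called either, with −0.05 for BMAL1 (edgeR adjusted p = 0.803) and −0.08 for CLOCK (adjusted p = 0.668). Levels of NR1D1 were 20.7 and 19.7 CPM at 0.0005 μM, 18.9 and 19.2 at 0.005 μM, 42.3 and 43.6 at 0.05 μM, and 32.9 and 27.9 at 0.5 μM. The hour of day at which libraries were taken is not given in the sources used here.

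The 13 mitochondrially encoded genes were not called between the sets, yet both libraries of 0.5 μM were above both of 0.05 μM in all 13, with a median step of 0.51 on the log2 scale. The pattern was present in 18.3% of all genes. Mitochondrial genes made up 3.55% and 3.03% of counts at 0.05 μM and 4.09% and 5% at 0.5 μM. The replicates of 0.0005 μM, at 3.22% and 5.13%, differed from each other about as widely. No gene of the list was called at that step, where edgeR called 9 genes in all and 3159 had an unadjusted p under 0.05.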
